A study of Mus musculus with 6 samples.

Results

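The cytosolic ribosomal protein genes of the postnatal mouse cerebellum were taken from the count table by symbol: Rpl or Rps with a number and at most a short suffix, Rplp0 to Rplp2, and Rpsa. Pseudogenes marked as such in the symbol (-ps) and S6 kinases were left out, and at least 10 counts over all libraries were required. Of 84 symbols that fit the pattern, 81 had enough counts, out of 26195 genes with any count, and 78 of the 81 passed the filter on low counts and were tested. Rpl39l, Rpl6l and Rpl10l had too few counts, and Rpl3l, Rps27 and Rpl23a were kept as members but not tested. The symbol rule does not take in Rps3a1, Fau and Rack1, whose products are also part of the ribosome or bound to it.

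RNA came from the cerebellum of 6 C57BL/6 mice aged 6 days, 3 labelled wild type and 3 labelled SnoN cKO, a conditional knockout of SnoN. SnoN, encoded by Skil, is a transcriptional regulator that binds Smad proteins, and the series concerns its part in the proliferation of granule neuron precursors, which divide in the outer layer of the cerebellar cortex at this age. In each genotype replicate 1 was labelled female and replicates 2 and 3 male. The promoter driving the recombinase, the deleted exons and the cells that lost SnoN are not stated by any source used. Whole tissue was sequenced, so fewer cells of a type and less RNA per cell cannot be told apart.

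Each ribosome is built from a small subunit, which reads the messenger RNA, and a large subunit, which joins amino acids, and nearly every ribosomal protein is present in a single copy per ribosome. Their mRNAs begin with a cytosine followed by a stretch of pyrimidines (the terminal oligopyrimidine or TOP motif), through which mTORC1 controls their translation. In mammals most of these genes have many processed pseudogenes, copies inserted into the genome from spliced mRNA, and growing precursor cells depend on a steady supply of ribosomes.

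The TOP motif was looked for at the annotated start sites, which the symbol rule did not use. Of 60 members with an entry in RefSeq's promoter table (build GRCm38.p6), 13 had, at an annotated start, a C followed by at least 4 bases that were C or T (21.7%), against 3.01% of the 27025 genes in the table. A run of at least 8 bases that were C or T, on the sense strand between 10 bases before and 20 after the start, was found for 24 of the 60 members (40.0%) and for 13.0% of all genes. Below are 20 bases on each side of the annotated start for 5 of the 13 members, with the pyrimidine run that begins at the start in capitals.
Rps18 (chr17:33955646-33955685, minus strand): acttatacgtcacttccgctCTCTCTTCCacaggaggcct
Rps10 (chr17:27635225-27635264, minus strand): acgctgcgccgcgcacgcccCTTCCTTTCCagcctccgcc
Rps6 (chr4:86857348-86857387, minus strand): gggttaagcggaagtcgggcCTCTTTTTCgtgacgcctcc
Rpl15 (chr14:18270967-18271006, minus strand): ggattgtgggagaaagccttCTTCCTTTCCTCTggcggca
Rplp2 (chr7:141447631-141447670, plus strand): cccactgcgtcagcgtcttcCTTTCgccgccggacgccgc
In the other 47 members the annotated start did not have these letters, which says nothing of the start used in the tissue. Of the tested members, those with the motif at the start had a median log2 fold change between genotypes of 0.07 (n = 12) and those without it one of 0.09 (n = 46).

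The levels set in this table differed far more between members than between libraries, and were lower in members that share more sequence with other genes. Levels are CPM, the count of a gene scaled to a fixed library total after TMM. The tested members spanned a 491-fold range of mean CPM over the 6 libraries, although the proteins are used in nearly equal numbers. The 5 highest members, among them Rpl4, Rpl8, Rps3 and Rpl13a, held 38.2% of the summed CPM. Rpl4, whose product lines the tunnel through which the new protein leaves, was at 648, 624 and 642 CPM in wild type 1 to 3 against 671, 704 and 679 CPM in SnoN cKO 1 to 3. Rps6, the small subunit protein phosphorylated by the S6 kinases, was at 3.36, 3.32 and 2.65 CPM in wild type against 4.46, 3.11 and 2.17 CPM in SnoN cKO. Rpsa, which also serves as a laminin receptor precursor, was at 2.80 ± 0.486 CPM in wild type (SD, n = 3) against 3.60 ± 0.405 CPM in SnoN cKO (SD, n = 3). Altogether 17 members had a mean over 100 CPM and 14 a mean under 5 CPM.

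Sequence identity with other genes was measured on the GENCODE M21 transcripts, as the share of 50-base windows of a member's coding sequence that occur exactly in a transcript of another gene. Of the 81 members, 80 had a protein-coding transcript there under their symbol, and Rps4l had none. Without Rpl3l, a little-used paralogue, 79 members could be placed. Their median share was 91.6%, and 29 members had every window repeated elsewhere. Below are the coding windows held by most other genes in 3 members, and the stretch of Rps27l at the same coding positions as the Rps27 window, with the 13 bases that differ from Rps27 in capitals.
Rps27 (coding bases 161 to 210, in 5 other genes): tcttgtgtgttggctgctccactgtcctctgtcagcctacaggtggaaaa
Rps27l (coding bases 161 to 210): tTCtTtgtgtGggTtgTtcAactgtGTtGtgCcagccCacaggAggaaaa
Rpl23a (coding bases 250 to 299, in 18 other genes): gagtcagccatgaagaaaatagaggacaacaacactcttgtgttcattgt
Rpl7a (coding bases 429 to 478, in 45 other genes): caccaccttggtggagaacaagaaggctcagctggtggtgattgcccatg
Of the genes that hold the Rpl7a window, 42 are annotated as pseudogenes, and for Rpl23a and Rps27 these numbers are 17 and 4.

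Per kb of coding sequence, members with at most 25% of their coding windows shared had a median level of 593 CPM (n = 5), those between 25% and 75% a median of 348 CPM (n = 13), and those over 75% a median of 44.7 CPM (n = 61). Across the 79 members Spearman's rho between the shared percentage and this level was -0.81, a description over genes that come from the same libraries. Rps27 and its paralogue Rps27l, separate genes whose true levels are not known, are set side by side. Both have coding sequences of 252 bases that match at 76.2% of positions, but all coding windows of Rps27 occur elsewhere against 48.3% of those of Rps27l. Rps27 had 1, 11 and 7 counts in wild type 1 to 3 and 5, 9 and 7 counts in SnoN cKO 1 to 3, whereas Rps27l had between 312 and 424 counts in every library. Rpl23a, which sits at the mouth of the exit tunnel, had 0.664 ± 0.0403 CPM in wild type (SD, n = 3). Rpl41 and Rpl13a stood apart from this order at 1259 and 634 CPM per kb with 100% and 97.5% of coding windows shared. The coding sequence of Rpl41 has only 75 bases, and its mean level was 94.4 CPM before division by length. Over whole transcripts, UTRs included, 43.9% of Rpl41 windows and 57.4% of Rpl13a windows were shared, but Rpl21 and Rps29, with 26.2% and 35.8%, were at 24.8 and 8.02 CPM per kb. How reads that fit several genes were counted is not stated by any source used, and its part in these levels was not tested. Levels of different members are therefore not read as amounts of mRNA, and the genotype comparison sets each member against itself.

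**Figure D1:**
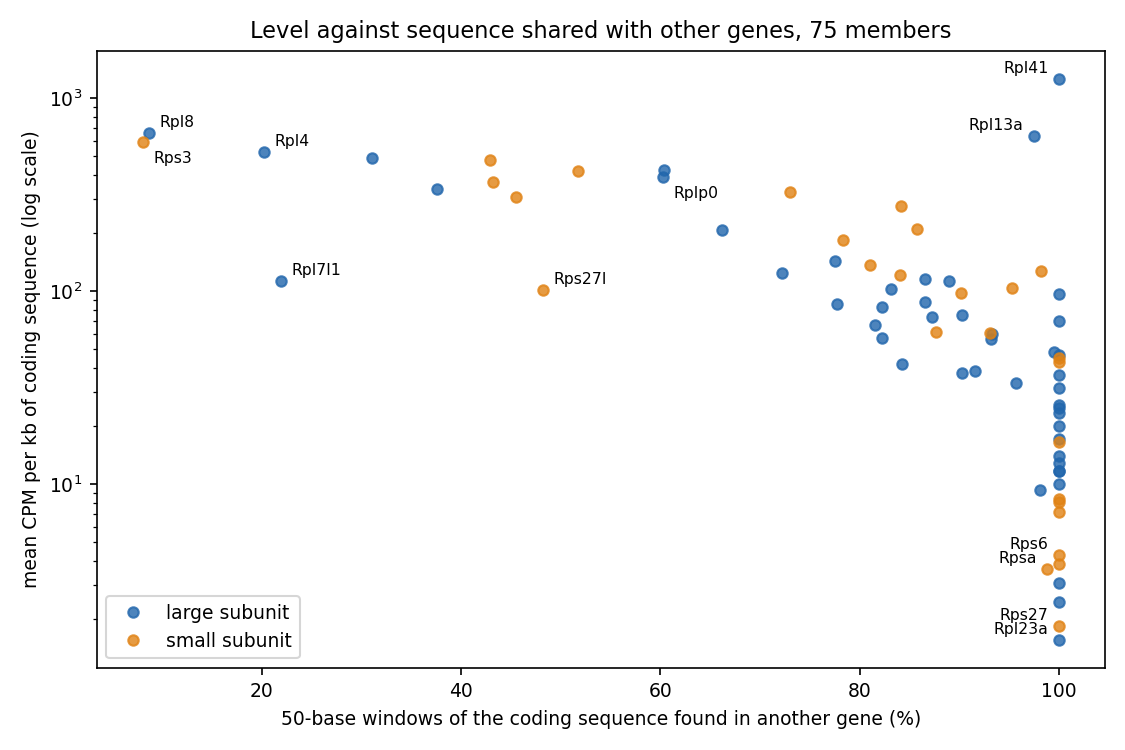
Mean CPM per kb of coding sequence (log axis) against the percentage of 50-base coding windows found exactly in another gene, with 1 point for each of 75 members, coloured by subunit. The 75 members plotted leave out 4 that are not reported here. Rpl8 and Rps3, with few shared windows, stand near the top, and Rps27 and Rpl23a, with all windows shared, at the bottom.

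Some libraries stood apart, as set out here before the genotypes are compared. Libraries held between 12605870 and 17757711 counts, of which members took between 0.599% and 0.673%. Skil, the targeted gene, was at 88.6 ± 1.0 CPM in wild type against 76.1 ± 1.39 CPM in SnoN cKO (± SD, n = 3 each), a log2 fold change of -0.22 (SE 0.04) with an unadjusted p of 0.000379 and an adjusted p of 0.637 by edgeR's quasi-likelihood test. The library labelled female SnoN cKO 1 had counts of Y-linked genes and 35 counts of Xist, and the library labelled male SnoN cKO 2 had 37467 counts of Xist, so the sex labels of these 2 go against their counts. SnoN cKO 2 also held little choroid plexus: the summed level of 10 choroid plexus markers was 50.4 CPM there, with 1804 CPM as the lowest and 3470 CPM as the highest sum elsewhere. SnoN cKO 3 and wild type 2 stood apart by Gm42418, with 3.75% and 0.692% of their counts against at most 0.0660% elsewhere. Granule lineage markers were high in all libraries, at a summed level between 2935 and 3426 CPM for 7 genes, and 3 forebrain markers together were at most 0.938 CPM.

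Ribosomal protein genes were mostly slightly higher in SnoN cKO, and no single member passed the test. By edgeR's quasi-likelihood test with Benjamini-Hochberg adjustment, 0 of 78 members had an adjusted p under 0.05, as did 0 of all 15457 genes tested (0.0%), and the smallest adjusted p was 0.637. DESeq2 also called 0 of 78 members, with 6 calls among all genes. The log2 fold change was above 0 in 71 of the 78 members (91.0%), where 49.0% of all genes tested were above 0. Its median was 0.09 over members and -0.0023 over all genes. At an unadjusted p under 0.05 there were 8 members higher (10.3%) against 3.21% of all genes, and 0 members lower against 4.47% of all genes. In either direction 1187 genes (7.68%) had such a p. The 3 SnoN cKO libraries were all above the 3 wild type libraries in 13 members (16.7%) against 6.95% of all genes, and all below in 0 members against 6.73% of all genes.

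The 8 members with an unadjusted p under 0.05 were between 7.30% and 13.4% higher in SnoN cKO, with adjusted p between 0.637 and 0.638 by edgeR's test. Rps26, a small subunit protein at the channel where the mRNA leaves, was at 105, 106 and 105 CPM in wild type 1 to 3 against 109, 128 and 122 CPM in SnoN cKO 1 to 3, a log2 fold change of 0.18 (SE 0.06). The wild type libraries lay close together, and all SnoN cKO libraries were above them, SnoN cKO 1 by the least. Rps7 was at 58.4, 56.6 and 54.2 CPM in wild type against 60.9, 61.4 and 69.2 CPM in SnoN cKO, a log2 fold change of 0.18 (SE 0.06). Rps19, the small subunit protein that is most often mutated in the human anaemia named after Diamond and Blackfan, was at 58.9, 55.8 and 53.2 CPM in wild type against 60.2, 62.4 and 64.1 CPM in SnoN cKO, a log2 fold change of 0.15 (SE 0.05). Groups did not overlap in either gene, though wild type 1 came close to the lowest SnoN cKO library in both.

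Rpl23, a large subunit protein that can bind the p53 inhibitor Mdm2, was at 34.0, 35.7 and 35.7 CPM in wild type against 38.8, 39.0 and 38.0 CPM in SnoN cKO, a log2 fold change of 0.14 (SE 0.05). Its SnoN cKO libraries were close to each other, with no single library setting the difference. The log2 fold change of Rpl4 was 0.10 (SE 0.04), with groups that did not overlap at the levels given above. Rpl13a, a large subunit protein also known as a translational silencer in human cells, was at 366, 372 and 368 CPM in wild type against 371, 429 and 413 CPM in SnoN cKO, and for Rps25, needed for initiation on some viral RNAs, the log2 fold change was 0.16 (SE 0.07). In both genes SnoN cKO 1 lay within the range of wild type.

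**Figure D2:**
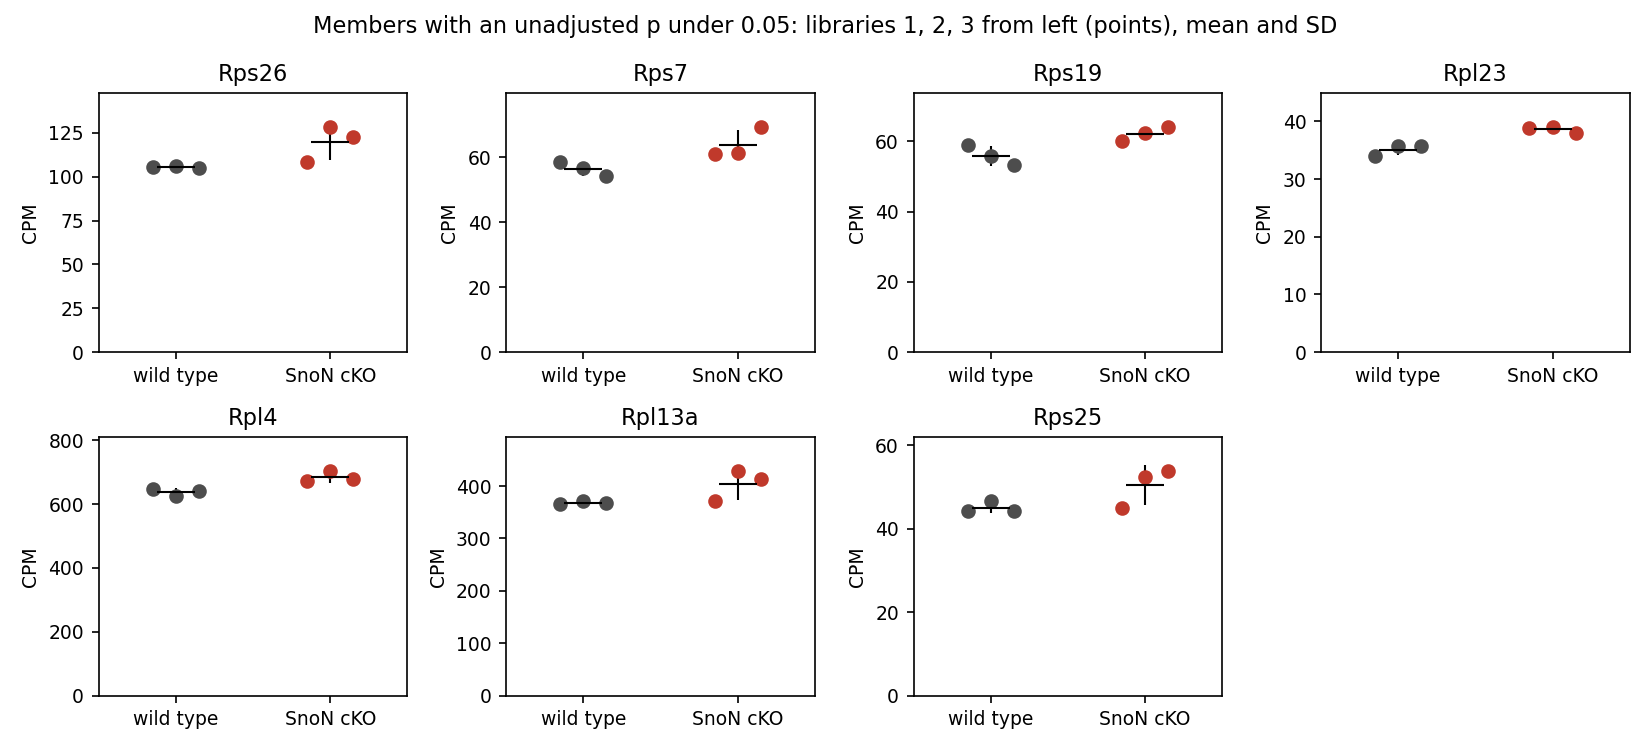
CPM of 7 of the 8 members with an unadjusted p under 0.05 in each library (points, replicates 1 to 3 from left), with the mean (horizontal line) and SD (vertical line) of 3 libraries per genotype. In Rps26, Rpl23, Rpl4 and Rpl13a the highest library is SnoN cKO 2, and in Rps7, Rps19 and Rps25 it is SnoN cKO 3.

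The 7 members with a log2 fold change below 0 included Rpl36a, Rpl31, Rpl28, Rpl24 and Rps27a. None had an unadjusted p under 0.05, and in 6 of the 7 every coding window occurs in another gene. Rpl36a was at 5.63, 6.38 and 5.38 CPM in wild type against 5.09, 5.55 and 4.69 CPM in SnoN cKO, a log2 fold change of -0.19 (SE 0.14, adjusted p = 0.734 by edgeR). For Rpl31 the log2 fold change was -0.14 (SE 0.16), and for Rps27a, which is made as a fusion with ubiquitin, it was -0.05 (SE 0.12). Groups overlapped in all 7. Among members with a mean count of at least 500, 37 of 38 were above 0 and the median was 0.09, and among those with fewer counts 34 of 40 were above 0 and the median was 0.08.

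**Figure D3:**
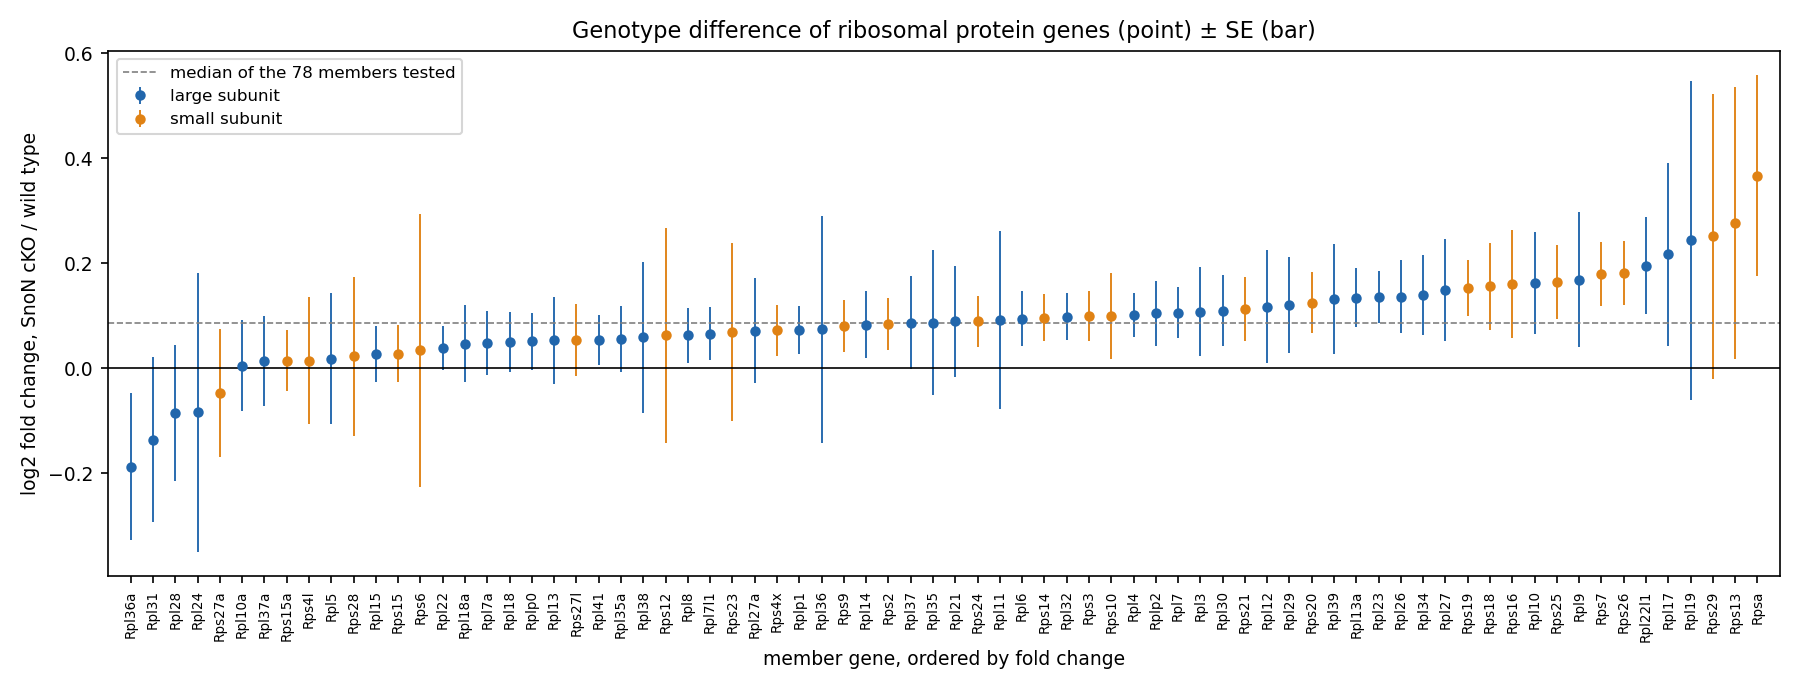
Log2 fold change of SnoN cKO over wild type for 74 of the 78 tested members, ordered by value, with its SE as a bar and the subunit as colour. Most points lie between 0 and 0.2, and the widest bars belong to members with few counts such as Rps13, Rps29 and Rpl19.

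In the large subunit 43 of 47 members were above 0 with a median log2 fold change of 0.09, and in the small subunit 28 of 31 with a median of 0.09. An unadjusted p under 0.05 was found for 3 of the 47 and 5 of the 31, and groups did not overlap in 6 and 7 members. All of these were higher in SnoN cKO. Among all genes tested, 3.21% were higher with such a p, and 7.68% had one in either direction. Groups did not overlap in 6.95% of all genes with SnoN cKO higher, and in 13.7% in either direction. The difference between subunits was not tested. Over the classes of shared sequence the medians were 0.08, 0.10 and 0.09 in members with at most 25%, 25% to 75% and over 75% of coding windows shared, and Spearman's rho over 77 members was -0.08. All 5 members that share least were above 0.

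Several members have known roles besides building the subunit. The stalk proteins, which recruit elongation factors to the large subunit, had log2 fold changes of 0.05 (SE 0.05) for Rplp0, 0.07 (SE 0.05) for Rplp1 and 0.10 (SE 0.06) for Rplp2. Rplp0 was at 364, 372 and 354 CPM in wild type against 369, 404 and 356 CPM in SnoN cKO, so that the genotypes overlapped. Rps3, which lines the channel where the mRNA enters, was at 423, 417 and 412 CPM in wild type against 431, 473 and 437 CPM in SnoN cKO, a log2 fold change of 0.10 (SE 0.05), and its groups did not overlap. Rpl5 and Rpl11, which carry 5S ribosomal RNA and hold back Mdm2 when ribosome assembly fails, differed by 0.02 (SE 0.13) and 0.09 (SE 0.17) on the log2 scale. Rpl38, whose loss causes skeletal patterning defects in the tail-short mouse, had one of 0.06 (SE 0.14), and Rps6 one of 0.03 (SE 0.26). None of these 8 members had an unadjusted p under 0.05 by edgeR's test, so changes of either sign are not excluded for any of them. For Rplp0, Rpl5, Rpl11, Rpl38 and Rps6 the log2 fold change was smaller than its SE.

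Of the 8 paralogue pairs looked at, the ratio of Rpl22l1 to Rpl22 alone was ordered by genotype. For comparison, the levels of single genes did not overlap between genotypes in 13.7% of all genes tested, in either direction. Rpl22 is an RNA-binding large subunit protein that in the mouse represses Rpl22l1. For every 100 counts of Rpl22 there were 8.14, 7.87 and 7.19 of Rpl22l1 in wild type 1 to 3 and 8.60, 8.50 and 8.75 in SnoN cKO 1 to 3, so the groups did not overlap. Rpl22l1 itself was at 14.3 ± 0.959 CPM in wild type against 16.4 ± 0.704 CPM in SnoN cKO (± SD, n = 3 each), a log2 fold change of 0.20 (SE 0.09, adjusted p = 0.654 by edgeR), and Rpl22 had one of 0.04 (SE 0.04). The difference between these 2 fold changes was not tested, and 3 against 3 libraries cannot give an exact two-sided p under 0.10. Rpl7l1, a relative of Rpl7, was present at 68.1 to 74.1 counts for every 100 of Rpl7, and Rps4l at 35.4 to 47.4 for every 100 of Rps4x, with the genotypes overlapping in both. Rpl36al had 302 to 408 counts for every 100 of its X-linked relative Rpl36a. The paralogues known from muscle and testis had few counts, with at most 6 counts of Rpl3l, 4 of Rpl39l and 1 of Rpl10l in any library.

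The X-linked members are compared by genotype and not by sex, since the sex labels of SnoN cKO 1 and SnoN cKO 2 go against their counts. Rps4x was at 75.6, 74.1 and 75.1 CPM in wild type 1 to 3 against 74.7, 82.5 and 79.1 CPM in SnoN cKO 1 to 3. Rpl10, a late-joining large subunit protein near the catalytic centre, was at 12.5, 11.2 and 12.8 CPM in wild type against 13.2, 13.6 and 14.0 CPM in SnoN cKO, with no overlap between the genotypes and a log2 fold change of 0.16 (SE 0.10, adjusted p = 0.684 by edgeR). For Rpl39 the log2 fold change was 0.13 (SE 0.10), and Rpl36a is given above.

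Of the 6 libraries, SnoN cKO 2 had the highest levels. Summed over the 81 members, the level was 5995, 6039 and 5980 CPM in wild type 1 to 3 against 6137, 6685 and 6315 CPM in SnoN cKO 1 to 3. All SnoN cKO libraries were above all wild type libraries, and SnoN cKO 2 was the highest. The mean was 6004 ± 30.9 CPM in wild type against 6379 ± 280 CPM in SnoN cKO (± SD, n = 3 each), 6.24% higher, and 3.69% higher without SnoN cKO 2. Each tested member was also set against its own mean log2 CPM over the libraries. The median of these deviations was -0.030, -0.034 and -0.062 in wild type 1 to 3 and -0.013, 0.119 and 0.040 in SnoN cKO 1 to 3. In SnoN cKO 2, 93.6% of members lay above their own mean, in SnoN cKO 3 67.9%, and in SnoN cKO 1 37.2%, close to the 34.6% of wild type 1 and 2. The highest of the 6 values was in SnoN cKO 2 for 47 of the 78 members. Without SnoN cKO 2, 58 of 78 members were above 0 (74.4%, against 49.2% of all genes) with a median log2 fold change of 0.05. By edgeR's test 3 of the 78 members then had an unadjusted p under 0.05, all higher. Among all genes these were 740 of 15568, of which 326 were higher.

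SnoN cKO 2 was also the library that stood apart in other tissues' markers. Besides choroid plexus, with 10 of 10 markers below their mean there, the summed level of 10 brainstem and spinal cord markers was 4.26 CPM in SnoN cKO 2, with 7.99 CPM the lowest and 23.9 CPM the highest elsewhere, and that of 6 oligodendrocyte markers 834 CPM against 1006 to 1066 CPM. The summed level of 7 granule lineage markers was 3426 CPM there and between 2935 and 3368 CPM elsewhere, and 8 of 8 microglia markers were above their own mean in that library. Between genotypes, all 7 granule lineage markers had a log2 fold change above 0 with a median of 0.11, larger than the 0.09 of the ribosomal protein genes, as did 8 of 8 microglia markers with a median of 0.07 and 4 of 5 Purkinje cell markers with a median of 0.08. Below 0 were 10 of 10 choroid plexus, 7 of 7 tested brainstem and spinal cord, 5 of 6 oligodendrocyte, 6 of 6 tested red blood cell and 7 of 7 meninges markers. The part of tissue composition in the levels of the ribosomal protein genes was not tested. Without wild type 2 and SnoN cKO 3 together, the pair with high Gm42418, 68 of 78 members were above 0 and the median was 0.11. By edgeR's test 1 of the 78 members then had an unadjusted p under 0.05, against 861 of all 15399 genes.

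**Figure D4:**
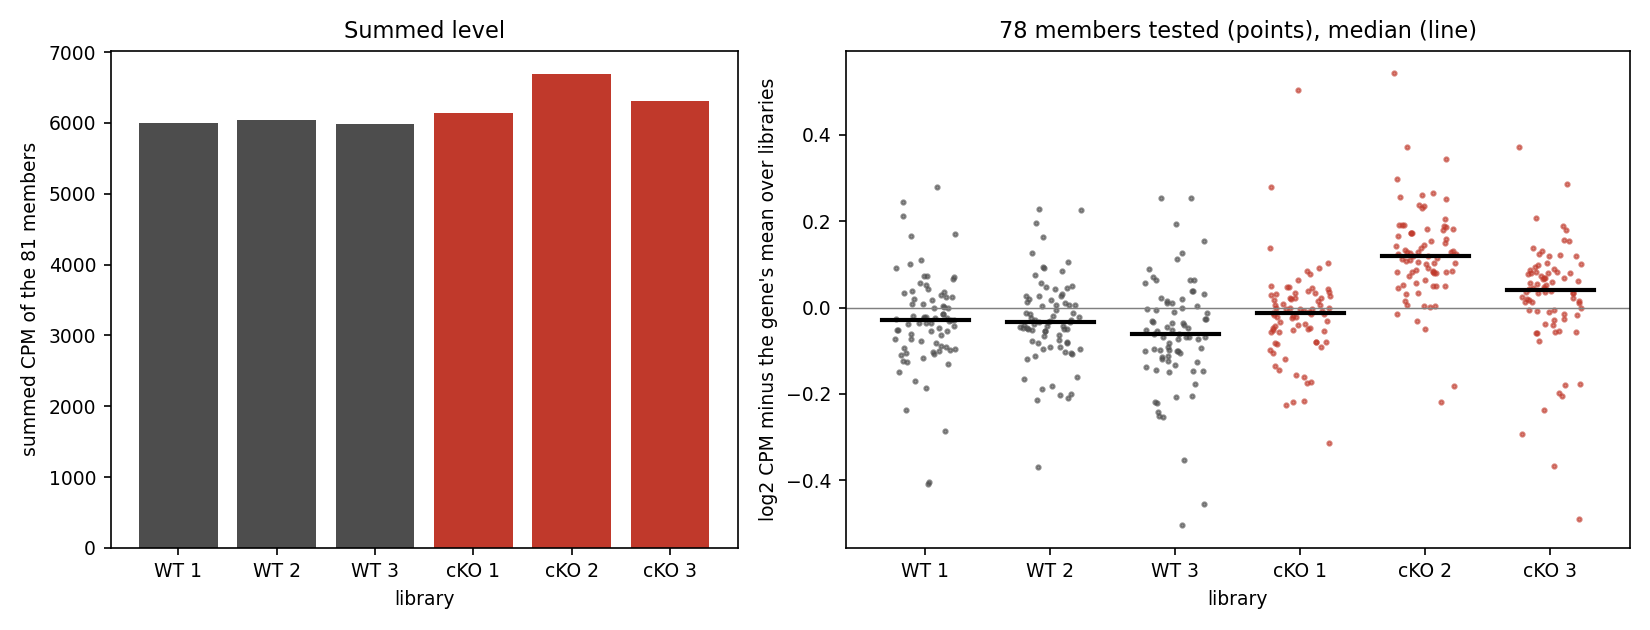
Left, the summed CPM of the 81 members in each library. Right, for each of the 78 tested members (points), log2 CPM minus the gene's mean over the 6 libraries, with the median as a line: SnoN cKO 2 has a median of 0.119, SnoN cKO 3 of 0.040, and the other libraries lie below 0.

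Members are short transcripts, with a median length of 711.5 bases against 2305 bases for the other 13923 protein-coding genes tested. Among those other genes the fold change moved with length. Above 0 were 55.3% of those under 750 bases, 57.3% of those from 750 to 1500 bases, 49.8% of those from 1500 to 3000 bases and 41.5% of longer ones, with medians of 0.01, 0.02, -0.00080 and -0.02. The members' share of 91.0% and median of 0.09 lay above those of every length class. The part of transcript length in the members' values was not tested.

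Other genes of ribosome production and translation are set beside the members by the same counts. None of these lists had a gene with an adjusted p under 0.05 in edgeR's test. Of 54 ribosome biogenesis factors tested, 46 were above 0 (85.2%) with a median log2 fold change of 0.07, and 8 had an unadjusted p under 0.05, all higher. Ltv1, which helps export the small subunit from the nucleus, was at 23.9 ± 1.24 CPM in wild type against 28.7 ± 2.13 CPM in SnoN cKO (± SD, n = 3 each), a log2 fold change of 0.26 (SE 0.08). Wdr43 and Dkc1, which act in early processing and in the modification of ribosomal RNA, had log2 fold changes of 0.16 (SE 0.05) each. In all 3 genes every SnoN cKO library was above every wild type library.

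Of 23 elongation factors and other TOP mRNAs, 21 were above 0 with a median of 0.06, and 3 had an unadjusted p under 0.05. Rack1, a scaffold on the small subunit, was at 490, 492 and 485 CPM in wild type against 521, 552 and 517 CPM in SnoN cKO, a log2 fold change of 0.12 (SE 0.04). Fau, which encodes a ribosomal protein outside the symbol rule, differed by -0.23 (SE 0.16) on the log2 scale. Translation initiation factors were above 0 in 20 of 26 with a median of 0.05, and mitochondrial ribosomal proteins, which build a separate ribosome, in 58 of 75 with a median of 0.06. Nuclear subunits of oxidative phosphorylation were above 0 in 59 of 75 with a median of 0.04, and mitochondrially encoded transcripts in 3 of 7 tested with a median of -0.03.

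RNA polymerase I genes, which transcribe ribosomal RNA, were above 0 in 10 of 15 with a median of 0.03, and Ttf1, which ends that transcription, was lower at 23.6 ± 0.935 CPM against 26.8 ± 0.965 CPM (± SD, n = 3 each), a log2 fold change of -0.19 (SE 0.07, unadjusted p = 0.0205 and adjusted p = 0.637 by edgeR). The list of mTORC1 and S6 kinase control genes also held genes of the Myc and Mdm families. It was above 0 in 12 of 23 with a median of 0.03. Within it, Akt1s1, an inhibitor of mTORC1, was higher by 0.18 (SE 0.05) on the log2 scale. Mycl, a Myc family transcription factor, was higher by 0.24 (SE 0.07). Both had an adjusted p of 0.637 by edgeR. The other Myc family genes in the list had log2 fold changes of either sign, each smaller than its SE. Median deviations were highest in SnoN cKO 2 for ribosomal protein genes (0.119), biogenesis factors (0.097), the elongation and TOP list (0.077) and initiation factors (0.033). In each of these 4 lists the 3 SnoN cKO libraries were all above the 3 wild type libraries, by the least in the elongation and TOP list, at -0.0173 in SnoN cKO 1 against -0.0185 in wild type 3. For mitochondrial ribosomal proteins the medians were 0.023, 0.045 and 0.043 in SnoN cKO 1 to 3 against -0.032, -0.013 and -0.033 in wild type, with SnoN cKO 2 and SnoN cKO 3 nearly equal.

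**Figure D5:**
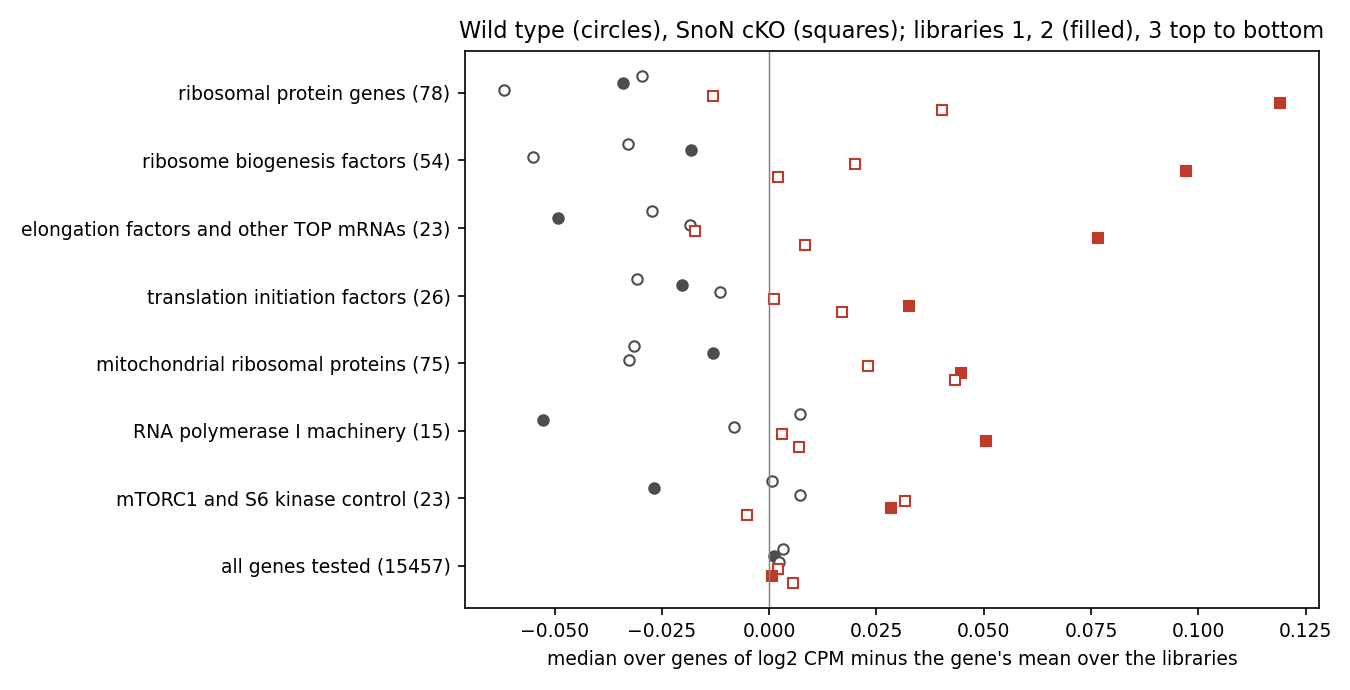
Median over the genes of each list (rows, number of tested genes in brackets) of log2 CPM minus the gene's mean over the 6 libraries, in wild type (circles) and SnoN cKO (squares), with replicate 2 filled. For ribosomal protein genes SnoN cKO 2 lies at 0.119 and the other SnoN cKO libraries at -0.013 and 0.040, and for all genes tested every library lies within 0.006 of 0.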

How the data were processed

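Single-end RNA-seq libraries of 6 cerebella, 1 per sample, were made with a kit that does not record strand, per the labels' protocols. The authors deposited raw counts per gene in 1 table. The build mm9 and the tools featureCounts 1.4.5, Subread and STAR 2.0.4b are named in the submitters' processing notes. The annotation, the read length and the treatment of reads that fit several genes are not stated by any source used. P-values measure the spread between these samples, which no source ties to litters.

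The identifier column was out of step with the symbols: of 40254 identifiers in GENCODE M21, 97 paired with the symbol beside them. Olfactory receptor genes had at least 10 counts in 1.25% of entries by symbol and 50.8% by identifier, so symbols were used. Of 41228 entries, 660 repeated a symbol with the same counts and were kept once, 15 of them members.

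Genes were filtered with filterByExpr at a minimum count of 10 (15457 left), scaled by TMM and fitted with edgeR 4.0.16 in R 4.3.3 by genotype alone, with a two-sided quasi-likelihood test and Benjamini-Hochberg adjustment at 0.05 over all genes tested. DESeq2 1.42.0 was an alternative. The common biological coefficient of variation was 9.71%. CPM is the count scaled to a fixed TMM-scaled total, and log2 CPM used a prior count of 2. SE is the log2 fold change divided by the square root of F. The fit was tested on simulated counts of 15457 genes. It called 86 of 100 genes changed by 2-fold and 67 of 100 changed by the square root of 2. It also called 18 unchanged genes, a larger share of its calls than the threshold of 0.05 aims for. Changes as small as those of the members were not simulated. All pairs of libraries differed beyond sampling noise, with a chi-square per degree of freedom of at least 2.70.

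The members and the gene lists were chosen with earlier results of these data known. Named members were, by rule, the 6 with the smallest p in each direction, the 5 highest and 5 lowest in mean CPM, 8 paralogue pairs, 12 members of known role and the X-linked members, and up to 3 genes per other list. Some genes are not reported here. Rps25, Rpl24, Rps13, Rpl6l, Rps18, Rps10, Rpl15, Rpl7a, Rpl21, Rpl41 and Fau were named after their values or sequences were seen. Alternatives were other size factors, no filter, DESeq2, all entries kept, the labelled sex, the replicate number as a block and leaving out libraries. Leaving out wild type 2 with SnoN cKO 3 was chosen after seeing the data. Sequences are from RefSeq and GENCODE M21, and no coordinates of the mm9 build were used.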

Additional observations from a re-analysis of the deposited data

How the results depend on the processing

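In every alternative run, 0 members were called, the median log2 fold change of members stayed above 0 and so did the log2 ratio of their summed levels. Leaving out 1 library gave medians from 0.05 to 0.12 and log2 ratios from 0.05 to 0.11, the lowest without SnoN cKO 2, and 0 called genes each time. Without SnoN cKO 2, 3 of 78 members had an unadjusted p under 0.05 by edgeR's test, against 740 of 15568 genes. Without SnoN cKO 1 these were 13 of 79 members against 1259 of 15794 genes. With no filter on low counts they were 14 of 81 members against 1865 of 26195 genes. Without wild type 2 and SnoN cKO 3 together they were 1 of 78 members against 861 of 15399 genes. Among all genes, DESeq2 called 6, the fit with the labelled sex 1 and the fit with no filter 39, and the cause was not tested. Same-numbered libraries had correlations of their deviations of -0.0404, -0.324 and -0.183. Those of the other pairs lay between -0.174 and 0.39, the highest for wild type 2 with SnoN cKO 3. No pairing by number showed, but so few values cannot exclude it. With the replicate number as a block 0 genes were called and the members' median was 0.0846. In that edgeR fit 5 of 78 members had an unadjusted p under 0.05, against 786 of 15457 genes. Skil lay between -0.24 and -0.21 throughout. Some single genes turned sign, none past the threshold, and the cause was not tested. Over the fits without 1 library each, the log2 fold change ranged for Cx3cr1 from -0.0062 to 0.13, Otx2 from -0.43 to 0.10, Rpl11 from -0.0070 to 0.23, Rpl19 from -0.021 to 0.47, Rpl36al from -0.068 to 0.040, Rpl38 from -0.017 to 0.20 and Rpl5 from -0.070 to 0.12. It ranged for Rplp0 from -0.0025 to 0.098, Rps27a from -0.13 to 0.030, Rps4l from -0.088 to 0.16, Rps6 from -0.25 to 0.28 and Sostdc1 from -1.01 to 0.053. Without wild type 2 and SnoN cKO 3 together it was 0.053 for Rpl28, -0.096 for Rpl38, -0.055 for Rpl5, -0.064 for Rps29 and -0.049 for Rps4l. The 14 members under 5 CPM rest on few counts.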
